A study of Mus musculus with 34 samples.

Results

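Binding of p65 (RelA) after LPS was compared between CTCF-WT and CTCF-KO dendritic cells through the p65 peak lists of both, called WTLPS and KOLPS. The WTLPS list held 5465 peaks and the KOLPS list 1752, together 7217 of the 1393623 peaks in the whole series. A WTLPS peak that shared at least 1 bp with a KOLPS peak was called kept (1242 peaks), and the others were called lost (4223 peaks). A KOLPS peak without a WTLPS peak was called KOLPS only (490 peaks), and the remaining 1262 KOLPS peaks overlapped the kept ones. The series profiled transcription factors, cohesin and histone marks by ChIP-seq in bone marrow-derived dendritic cells (BMDCs), to ask what the chromatin-folding protein CTCF contributes to their response. It has 34 samples, of which 30 have a peak list and 4 are inputs. BMDCs came from C57BL/6 mice 8 weeks old that carried CreER, a tamoxifen-inducible Cre expressed from Rosa26, alone (CTCF-WT) or with loxP-flanked CTCF alleles (CreER;CTCF fl/fl, CTCF-KO). Bone marrow of both genotypes was cultured with GM-CSF for 6 days and received 4-OH tamoxifen on the first day, so that CTCF-WT cells also had active Cre. LPS, a bacterial ligand of the receptor TLR4, was given at 100 ng/ml for 3 h (WTLPS, KOLPS), and unstimulated cells are called WT and KO. Each condition and antibody has 1 list, so there was no spread between replicates and no test between conditions. Intervals in parentheses are 95% intervals for counting error only.

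p65 is the subunit of the NF-κB transcription factor that activates most of its inflammatory targets. In resting cells NF-κB is held in the cytoplasm by inhibitors such as IκBα, and TLR4 signalling degrades the inhibitor and lets p65 enter the nucleus, where it binds short κB sites at promoters and enhancers of cytokine, chemokine and survival genes. In dendritic cells this response supplies the cytokines and surface proteins that instruct T cells.

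The sequences at the summits show what p65 was found on. The strongest peaks at promoters of coding genes with a match to the κB consensus are shown. They are from the kept class (chr17:86950363-86950463, chr17:34862630-34862659 and chr17:35202456-35202556), the lost class (chr3:107099208-107099308, chr3:142496777-142496877 and chr17:37483651-37483751) and the KOLPS only class (chr5:100500777-100500877). Each is the summit with 50 bases to either side (30 bases in all for Cfb) on the plus strand of GRCm38.p6. Atp6v1e2 encodes a subunit of the vacuolar proton pump, Cfb complement factor B, Tnf the cytokine TNF, Kcna2 a potassium channel, Gbp5 a guanylate-binding protein of cell defence, H2-M2 an MHC class Ib molecule and Lin54 a DNA-binding part of the DREAM complex. Capitals mark κB matches on either strand.
Atp6v1e2, kept: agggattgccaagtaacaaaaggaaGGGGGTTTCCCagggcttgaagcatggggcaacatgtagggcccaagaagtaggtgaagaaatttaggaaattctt
Cfb, kept: ttacataactGGGAAATTCCgtgtgaaagc
Tnf, kept: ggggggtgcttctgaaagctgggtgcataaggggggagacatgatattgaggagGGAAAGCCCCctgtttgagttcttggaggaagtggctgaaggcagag
Kcna2, lost: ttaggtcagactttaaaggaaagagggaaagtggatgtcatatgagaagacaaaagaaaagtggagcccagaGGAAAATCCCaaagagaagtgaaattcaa
Gbp5, lost: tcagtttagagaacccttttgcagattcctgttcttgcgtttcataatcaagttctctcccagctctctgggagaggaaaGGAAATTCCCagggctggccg
H2-M2, lost: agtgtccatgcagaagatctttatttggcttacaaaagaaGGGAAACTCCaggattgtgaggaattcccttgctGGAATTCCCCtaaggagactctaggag
Lin54, KOLPS only: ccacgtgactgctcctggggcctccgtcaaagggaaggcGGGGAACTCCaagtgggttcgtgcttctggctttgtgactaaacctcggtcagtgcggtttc

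The capitals in the Atp6v1e2 window are a pair of overlapping matches, and H2-M2 has separate ones. Most summits held no such match, among them the promoter peaks of Il6 (chr5:30012905-30013005, kept), Il12b (chr11:44399820-44399920, lost) and Nfkbia (chr12:55492702-55492802, kept), which encode the cytokine IL-6, the p40 chain of IL-12 and the inhibitor IκBα. Their windows are shown because these genes recur below.
Il6, kept: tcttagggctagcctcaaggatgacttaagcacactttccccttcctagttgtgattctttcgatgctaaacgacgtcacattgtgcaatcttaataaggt
Il12b, lost: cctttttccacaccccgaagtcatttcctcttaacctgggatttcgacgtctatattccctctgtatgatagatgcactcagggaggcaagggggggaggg
Nfkbia, kept: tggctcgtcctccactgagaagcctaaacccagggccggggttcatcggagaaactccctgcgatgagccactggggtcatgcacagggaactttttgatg

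The state of the samples bears on what follows. No list reads out CTCF protein or RNA, so the deletion can be followed through CTCF peaks alone, of which WT had 60537, WTLPS 54020, KO 20151 and KOLPS 11576. All 17 dendritic cell markers that were found in the annotation had an H3K4me3 peak at the promoter in all 4 conditions. The same held for 3 of 10 T cell markers, Lck, Tcf7 and Gata3, and not for Cd3e, Cd4 or Cd8a. Of 8 B cell markers it held for 2, Pax5 and Ebf1, and not for Cd79a, while Blnk had a peak in all conditions but KOLPS. Of 10 neutrophil and mast cell markers it held for 1, S100a8. Background coverage of the p65 libraries, in fragments per base, was 0.855 in WTLPS and 0.817 in KOLPS. The CTCF-KO samples stood apart at the immunoglobulin heavy-chain variable genes (Ighv, chromosome 12, 113572927 to 116010093, GRCm38), where 15 CTCF-KO lists held 2239 peaks and 15 CTCF-WT lists 810, with more peaks in CTCF-KO in 15 of 15 pairs of lists. KOLPS only results are therefore given with and without this region. It held 0 kept peaks and 1 lost peak.

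Most p65 peaks of LPS-stimulated CTCF-WT cells were not called in CTCF-KO cells. Over the whole WTLPS list 22.7% (21.6 to 23.9%) of the peaks were kept, and 28.0% (25.9 to 30.1%) of the KOLPS peaks were KOLPS only, or 25.2% (23.2 to 27.4%) outside the Ighv genes. A KOLPS peak lay within 1 kb of the summit of 54 of the 4223 lost peaks, and a WTLPS peak within 1 kb of 17 of the 490 KOLPS only peaks. In such bulk samples fewer cells with bound p65 and less binding in each cell cannot be told apart. Nor can either be told apart from a difference in enrichment between the libraries, as each condition is 1 list.

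Kept peaks were the strong ones. Strength is given as the number of fragments over the summit, which was recovered from the deposited fold and p. The median was 21 fragments (quartiles 15 and 32, highest 162) in kept peaks, 11 (9 and 15, highest 58) in lost peaks, and 12 (10 and 14, highest 40) in KOLPS only peaks, counted in KOLPS. With the WTLPS list split into 10 equal groups by strength, the kept share from the weakest to the strongest group was 4.57, 4.40, 8.78, 9.52, 12.6, 13.9, 19.6, 29.7, 47.5 and 76.7%. The share thus lay under 20% in the 7 weaker groups and climbed steeply in the 3 strongest. In the KOLPS list the share with a WTLPS peak went from 52.8% in the weakest to 95.4% in the strongest of 10 such groups.

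**Figure D1:**
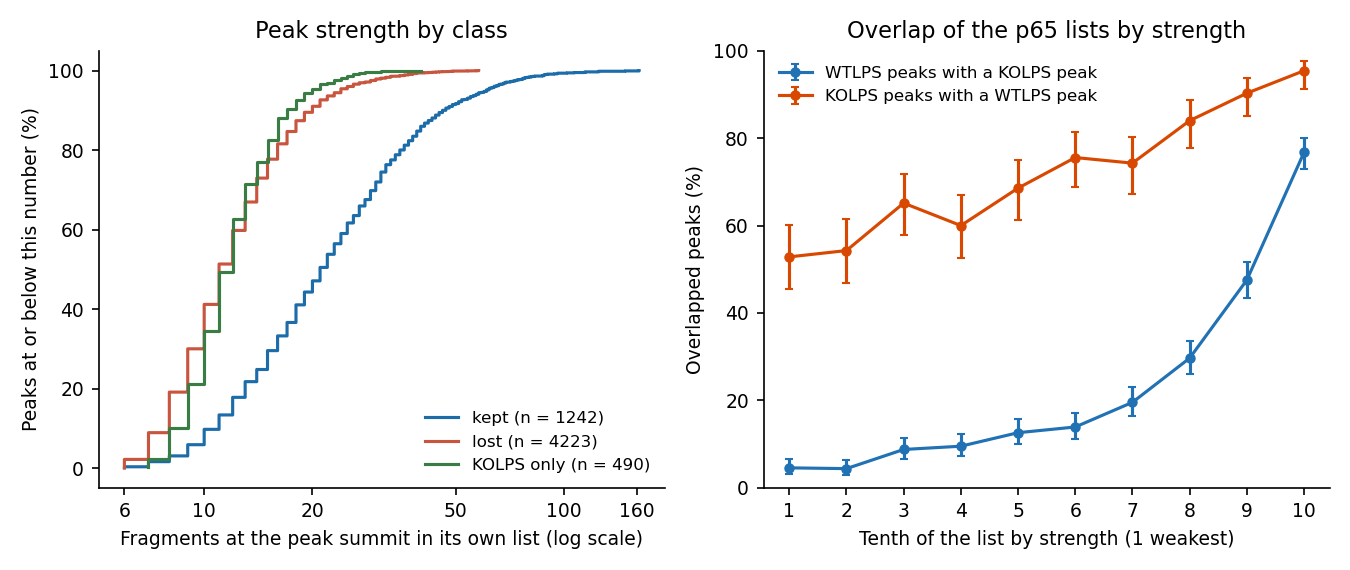
Left, cumulative share of p65 peaks (%) against fragments at the summit (log scale) for kept, lost and KOLPS only peaks, in which the kept curve lies to the right of the others. Right, share of peaks overlapped by the other list (%) in each of 10 strength groups of the WTLPS and KOLPS lists, with 95% Wilson intervals, rising to 76.7% in WTLPS and 95.4% in KOLPS.

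Coverage of the KOLPS library was 0.956 times that of WTLPS, and 95.4% of the lost peaks would still be expected to reach the 7 fragments of the weakest KOLPS peak after thinning to it. Counting error in a weak peak is wide, however. Restricted to the 2368 WTLPS peaks whose lower exact Poisson limit, scaled to the KOLPS coverage, reached 7 fragments, 41.0% (39.1 to 43.0%) were kept, a restriction chosen after seeing the data. Of these peaks 1396 were lost, and 443 of all lost peaks had 20 or more fragments. The weakest WTLPS peak had 6 fragments. Among the KOLPS only peaks 248 (50.6%) had a lower limit, scaled to the WTLPS coverage, at or above 6 fragments.

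Where p65 was kept, its peak was mostly lower in KOLPS. The median was 21 fragments in WTLPS and 15 in KOLPS, and the median ratio of KOLPS to WTLPS, each relative to its background, was 0.717 (quartiles 0.523 and 1.05). The ratio was below 1 at 900 of 1242 sites (72.5%), below 0.5 at 284 and above 1.5 at 118. Summits of the pairs lay 48 bp apart in the median and within 100 bp of each other at 989 sites (79.6%), so that kept peaks mostly stood at the same place.

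The strongest WTLPS peak lay in Sod2, the mitochondrial superoxide dismutase, with 162 fragments in WTLPS and 75 in KOLPS (chromosome 17, 13009768 to 13010795, promoter). Next came a peak at −12799 bp from the start of Ccdc88b, a cytoskeletal linker of immune cells, with 148 and 85 fragments (chromosome 19, 6870544 to 6871426, outside genes), and a peak in a Rapgef2 exon with 125 and 86 (chromosome 3, 79173054 to 79173753). All 10 strongest kept peaks were lower in KOLPS, among them those nearest to Fpr2, a formyl peptide receptor, with 107 and 38 fragments and to Il6 with 102 and 33. These 10 were ranked by their strength in WTLPS, a choice that by itself favours lower values in the other list. At coding promoters strong kept peaks included Nlrp3, the inflammasome sensor, with 75 and 34 fragments (chromosome 11, 59541242 to 59541757) and Fpr1 with 66 and 29 (chromosome 17, 17884675 to 17885201). Tnf had 61 fragments in WTLPS and 24 in KOLPS, and Cfb 62 and 12. Both are the promoters whose κB sites are shown above.

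The 10 strongest lost peaks had 48 to 58 fragments, fewer than the 10 strongest kept peaks with 96 to 162. The strongest, with 58 fragments, lay at −132785 bp from the start of Il6 (chromosome 5, 29879984 to 29880619). The promoter of Acod1, which makes the metabolite itaconate, had 54 fragments (chromosome 14, 103046621 to 103047200), and that of Saa3, an acute-phase protein, had 49 (chromosome 7, 46715599 to 46716151). No KOLPS peak overlapped either. The others of the 10 lay outside promoters, nearest to Mmrn1 (57 fragments), Rasd2 (55), Id2 (50), Marco (49), Ell2 (49), Emcn (49) and Mmadhc (48). Further lost promoter peaks, with 25 to 36 fragments, lay at Plpp1 (36), Igsf6 (33), Marco (32), Pik3ap1 (31), Cd300e (29), Kcna2 (29), Adgre1 (26) and Serpina3f (25). Marco encodes a scavenger receptor, Pik3ap1 an adaptor of TLR and PI3K signalling, and Adgre1 the surface protein F4/80. All of these strongest lost promoter peaks had more fragments than the median kept peak.

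p65 mostly bound away from promoters in WTLPS, and lost peaks more so than kept ones. A promoter, taken as 2.5 kb to either side of a start site, held 22.5% (20.2 to 24.9%) of kept and 17.8% (16.7 to 19.0%) of lost peaks. Introns held 35.3% and 40.0%, and the space outside genes 36.2% and 37.7%. A summit within 1 kb of a coding start was seen in 9.02% of kept and 5.66% of lost peaks. The difference at promoters was 4.68 points (2.15 to 7.33). Within 5 equal groups by strength, from the weakest to the strongest, 8.49, 10.8, 17.4, 29.1 and 75.3% of promoter peaks and 3.52, 8.74, 12.3, 23.5 and 59.4% of the others were kept. The intervals of promoter and other peaks overlapped in the 3 middle groups and not in the weakest and the strongest.

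A WTLPS peak was nearest to 3039 of 21911 coding gene names (13.9%) and a KOLPS peak to 1325 (6.05%). Of these 3039 genes 2045 had no kept peak, 446 no lost peak and 548 both. Of 157 genes with 5 or more WTLPS peaks, 31 had no kept peak, though more peaks give more chances of a kept one. The genes with the most lost peaks were Id2 with 14 of 17, Klf6 with 14 of 16, Tnfaip3 with 13 of 18, Ptger4 with 12 of 14 and Zeb2 with 11 of 15. Such counts rise with the number of peaks near a gene, and over the whole WTLPS list 77.3% of peaks were lost. Id2, Klf6 and Zeb2 encode transcriptional regulators, Tnfaip3 the NF-κB inhibitor A20, and Ptger4 a receptor of prostaglandin E2. The most kept peaks lay near Gm5426 (7 of 14), Lpp (6 of 16), Bhlhe40 (6 of 10), Inhba (5 of 15) and Tnfaip3 (5 of 18), of which Bhlhe40 encodes a transcription factor and Inhba a chain of activin A.

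When WTLPS peaks within 12.5 kb of each other were joined, the kept share was 21.1% (19.7 to 22.5%) for 3274 peaks that stood alone, 23.3% (21.0 to 25.7%) in 608 pairs, 28.0% (24.9 to 31.2%) in 240 clusters of 3 or 4 and 26.0% (20.3 to 32.7%) in 33 clusters of 5 or more. Peak strength rose alongside, from a median of 12 to 15 fragments. A kept peak was present in 240 of the 608 pairs (39.5%), in 159 of the 240 clusters of 3 or 4 and in 27 of the 33 largest clusters, and 0 of the largest kept all of their peaks. These counts depend on cluster size, since more peaks make a kept one likelier and keeping all less likely. Over the whole WTLPS list 22.7% of peaks were kept. The cluster at Acod1 kept 3 of 9, those at Cxcl5 and Lcp1 1 of 8, that at Bcl2a1a 4 of 7 and that at Gsr, the glutathione reductase, 0 of 6.

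Around the cytokine genes of the LPS response both promoter and distal peaks were lost. For comparison, 22.7% of all WTLPS peaks were kept. Of all lost sites, 60.1% had an H3K27ac peak and 57.3% an SMC1 peak in KOLPS. Within 100 kb of Il6, WTLPS had 9 peaks and 2 were kept, the promoter peak at −189 bp with 29 fragments in WTLPS and 11 in KOLPS, and an upstream peak at −64751 bp with 102 and 33. The 7 lost Il6 peaks had 7 to 27 fragments, and in KOLPS all 7 had an H3K27ac peak and 5 an SMC1 peak. A called peak does not give the level of signal, and the paper reports aborted activation of super-enhancers at Il6 and Il12a in KOLPS. Il12a, the p35 chain of IL-12, had 7 peaks with 9 to 32 fragments and 0 in KOLPS. At its lost sites SMC1 was present at 7 in WTLPS and 4 in KOLPS, and H3K27ac at 7 and 6.

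Il12b had 7 peaks and kept 1, at −9854 bp with 28 fragments in WTLPS and 10 in KOLPS, while the promoter peak with 19 was lost. Acod1 had 9 peaks and kept 3, at −39053, −30930 and −9720 bp, but lost the promoter peak, where H3K27ac, H3K4me3 and SMC1 peaks were all present in KOLPS. Ch25h, which makes 25-hydroxycholesterol, kept 1 of 7, at 23984 bp, with 60 fragments in WTLPS and 11 in KOLPS. Il1f6 (IL-36α) kept 2 of 4. An H3K27ac peak was present in KOLPS at 4 of 6 lost sites of Il12b, 5 of 6 of Acod1, 5 of 6 of Ch25h and 2 of 2 of Il1f6. The share over all lost sites was 60.1%.

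The loci of the NF-κB feedback genes Tnfaip3 and Nfkbia, of Tnf and of Cd40 also lost p65 peaks. Each kept a larger share than the 22.7% of all WTLPS peaks, as did Acod1 and Il1f6 above, though from few peaks. Tnfaip3 had 16 peaks within 100 kb and kept 5, the promoter peak with 51 fragments in WTLPS and 40 in KOLPS, and the peak at 5874 bp with 57 and 24. Nfkbia kept 2 of 6, at the promoter with 28 and 23 fragments and at 903 bp with 14 and 40, so that the peak inside the gene was higher in KOLPS. Tnf kept 3 of 6, among them the peak at −17734 bp with 58 and 35 fragments, and 2 KOLPS only peaks with 9 and 11 fragments lay nearby. The costimulatory receptor Cd40 kept its promoter peak, with 15 fragments in both lists, and lost 2 distal peaks. In KOLPS an H3K27ac peak was present at 10 of 11 lost sites of Tnfaip3 and at all lost sites of Nfkbia (4), Tnf (3) and Cd40 (2). Over all lost sites the share was 60.1%.

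**Figure D2:**
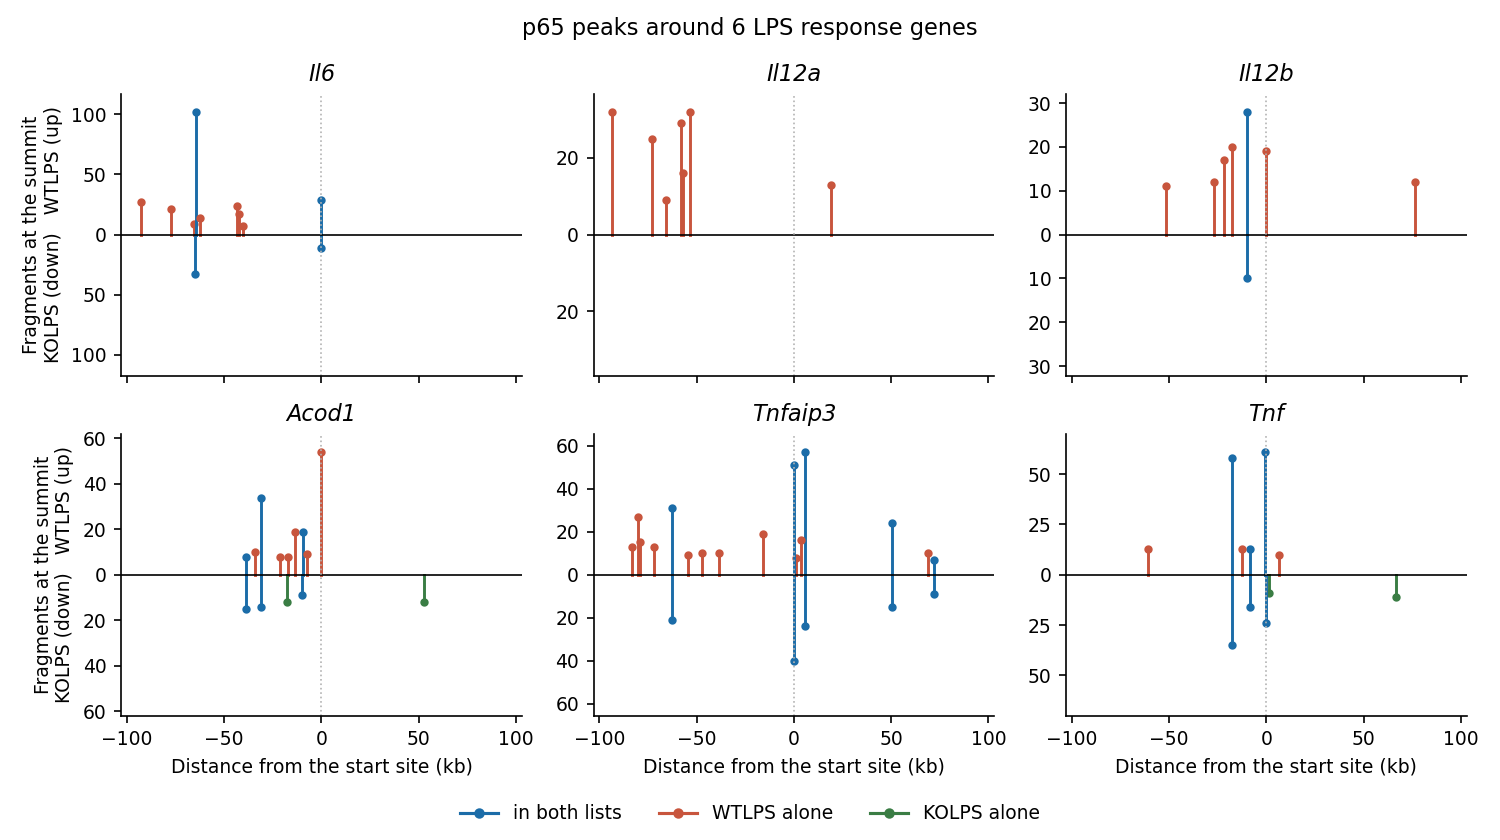
p65 peaks within 100 kb of the start sites of Il6, Il12a, Il12b, Acod1, Tnfaip3 and Tnf, placed by distance (kb), with fragments at the summit in WTLPS upwards and in KOLPS downwards, coloured by whether a peak was in both lists, in WTLPS alone or in KOLPS alone. At Il12a 7 bars point up and 0 down, and at Il6 the bar of 102 fragments faces one of 33.

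Of 21938 coding genes, 627 had p65 at the promoter in WTLPS (2.86%) and 408 in KOLPS (1.86%), and 194 of the 627 (30.9%) also had a promoter peak in KOLPS. The 9 lists of NF-κB and LPS response genes, which were chosen with earlier results of these data known, held 165 genes. Of them 73 had a promoter peak in WTLPS, 39 in KOLPS and 36 in both. The lists are described by their counts, and differences between them were not tested. Fragments given for a listed gene are those of its strongest promoter peak in each list, which need not be the same site. Survival and early response genes had 11 of 26 in WTLPS, 11 in KOLPS and 10 in both. LPS effectors had 14 of 24 in WTLPS and 3 in KOLPS, all 3 also in WTLPS. With promoters of 1 kb to either side the counts were 8 and 9 for survival and early genes and 12 and 1 for LPS effectors.

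Among the survival and early genes, promoter peaks in both lists lay at Birc3, an inhibitor of apoptosis (34 fragments in WTLPS, 21 in KOLPS), and Bcl2a1a, a BCL2 relative (27 and 8), whose near-identical copies leave the placement of reads uncertain. For several the strongest promoter peak had more fragments in KOLPS, by numbers not tested against counting error. Among them were Zfp36, which destabilises cytokine mRNAs, with 15 and 23 fragments and the phosphatase gene Dusp2 with 16 and 19. Zfp36 had 3 promoter peaks in WTLPS and 2 in KOLPS, and Maff 1 and 2. Maff, a small MAF factor, had 11 and 17, and Fosl2, an AP-1 subunit, had 7 and 11. Ier5 (13 fragments) had its promoter peak in WTLPS alone and Bcl2l11, which promotes apoptosis, in KOLPS alone with 9. Of the 78 WTLPS peaks nearest to genes of this list 34 were kept (43.6%, 33.1 to 54.6%), against 22.7% of all WTLPS peaks.

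The LPS effectors with a promoter peak in both lists were Sod2, Nlrp3 and Gbp2, a guanylate-binding protein with 15 fragments in each. The 11 in WTLPS alone were Acod1, Saa3, Marco, Gbp5, Serpinb2, Slc7a11, Slc7a2, Ptgs2, Casp4, Arg2 and Plaur, with 7 to 54 fragments. Ptgs2 encodes cyclooxygenase 2, Casp4 the caspase that senses intracellular LPS and Slc7a11 the cystine transporter. Peaks nearest to the genes of this list were kept at 16 of 71 (22.5%, 14.4 to 33.5%), against 22.7% of all WTLPS peaks.

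Cytokine promoters had 14 of 24 in WTLPS and 7 in KOLPS. In both lists were Il6, Tnf, Il1a (36 and 23 fragments), Il1b (24 and 10), Il1f6 (27 and 8) and Il1f9 (18 and 15). In WTLPS alone were Il12b, Il23a, Il1rn, Il15, Il18, Il27, Ltb and Tnfsf15, with 9 to 19 fragments, and in KOLPS alone Csf1 with 10. Genes of the IL-1 family were thus found on both sides, with Il1rn and Il18 in WTLPS alone. Chemokines had 11 of 18 in WTLPS and 6 in KOLPS, among them Ccl3 (52 and 41 fragments) and Cxcl2 (55 and 45), which attract monocytes and neutrophils. The strongest promoter peaks of Ccrl2 (25 and 28), Ccl9 (15 and 17) and Cxcl16 (11 and 13) had slightly more fragments in KOLPS, and that of Cxcl10 fewer (27 and 11). Ccl5, Ccl17, Ccl22, Cxcl3 and Cxcl9 had a promoter peak in WTLPS alone, with 12 to 18 fragments.

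Of the NF-κB subunits, Rel (24 and 27 fragments) and Nfkb2 (32 and 21) had a promoter peak in both lists and Rela itself in WTLPS alone (13). Among the inhibitors 8 of 12 had a promoter peak in WTLPS and 5 in KOLPS, which were Nfkbia, Nfkbib, Nfkbiz, Tnfaip3 and Tnip3. The TLR4 pathway had 6 of 24 and 3, with Tlr2 (14 and 15) and Irak3 (10 and 10) in both, and Myd88 (12) and Traf1 (15) among those in WTLPS alone. Costimulation genes had 4 of 13 and 2, with Cd40 and the adhesion molecule Icam1 (14 and 16) in both. Interferon-stimulated genes had 2 of 19, Irf1 and Trim25 with 8 fragments each, and 0 in KOLPS. Housekeeping genes had 0 of 15 in each list, T cell markers 0 of 10 and B cell markers 0 of 8. Dendritic cell markers had 3 of 17 and 2, and neutrophil and mast cell markers 1 of 10 and 0.

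**Figure D3:**
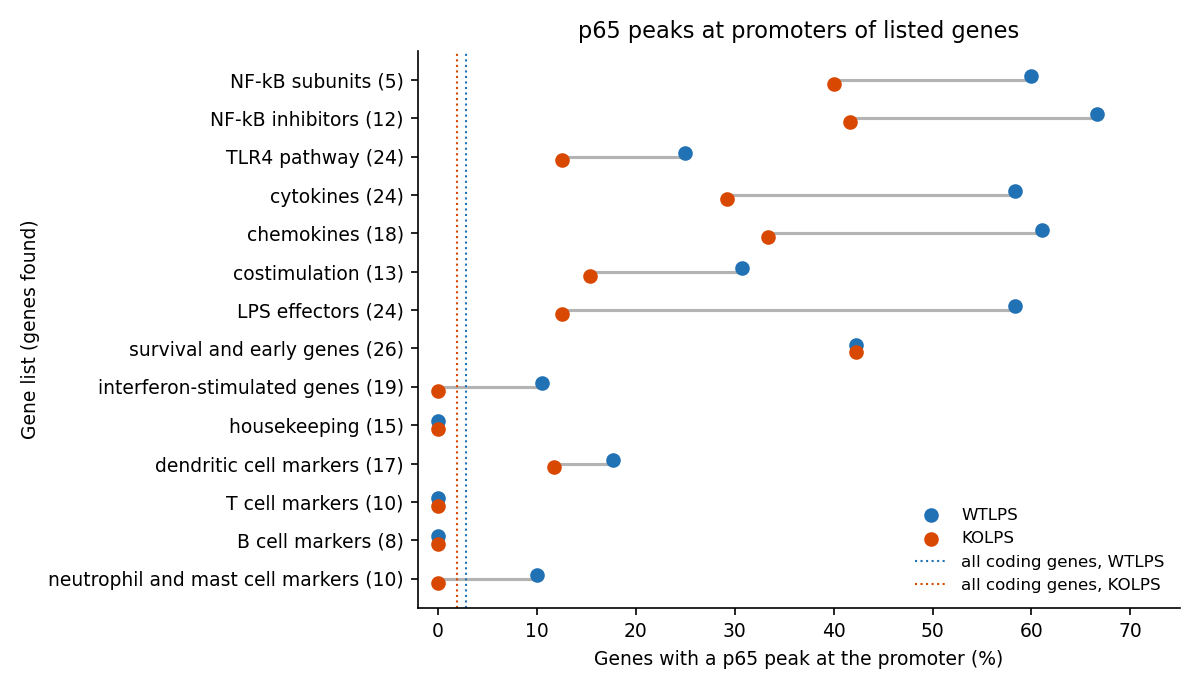
Share of genes in each list (%) whose promoter had p65 in WTLPS and in KOLPS, with the number of genes found in parentheses and dotted lines at 2.86% and 1.86% for all coding genes. LPS effectors went from 58.3% to 12.5%, while survival and early genes stood at 42.3% in both.

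The chromatin at p65 sites was compared through peaks of SMC1 and H3K27ac, which give presence and not the level of signal. SMC1 is a cohesin subunit that marks loop anchors and active enhancers, and H3K27ac is the mark of active promoters and enhancers. By signal, the paper reports that LPS raised both at RelA sites in CTCF-WT and not in CTCF-KO cells. An SMC1 peak lay at 90.4, 98.1, 89.0 and 92.1% of kept sites in WT, WTLPS, KO and KOLPS. At lost sites the shares were 67.0, 85.0, 60.3 and 57.3% in the same order. The gap between kept and lost sites was 34.9 points (32.6 to 36.9) in KOLPS and lay between 33.8 and 46.2 points in each of 5 equal groups by WTLPS strength. The SMC1 list as a whole was shorter in KOLPS, with 17241 peaks against 57354 in WTLPS, and its length's part in the gap was not tested. Seen from the p65 list, 32.1% (30.6 to 33.7%) of WTLPS sites with SMC1 in KOLPS and 5.15% (4.24 to 6.24%) of those without it were kept.

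H3K27ac followed the same order. A peak lay at 79.1, 88.2, 87.1 and 87.2% of kept sites in WT, WTLPS, KO and KOLPS and at 60.3, 71.6, 60.1 and 60.1% of lost sites. In KOLPS the gap was 27.1 points (24.6 to 29.4), or 18.5 points when both the H3K27ac and the p65 overlaps were read at the summit. Of the sites with both SMC1 and H3K27ac in KOLPS 36.0% (34.3 to 37.8%) were kept, against 17.4% (14.9 to 20.3%) with SMC1 alone, 8.62% (6.88 to 10.8%) with H3K27ac alone and 2.57% (1.78 to 3.68%) with neither. Of 1084 kept sites with both in WTLPS 88.7% (86.6 to 90.4%) had both in KOLPS. Of 2808 such lost sites 58.9% (57.0 to 60.7%) had both in KOLPS, 19.3% H3K27ac alone, 11.2% SMC1 alone and 10.6% neither.

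With LPS the number of lost sites with SMC1 went from 2831 in WT to 3589 in WTLPS and from 2547 in KO to 2418 in KOLPS. Over the whole SMC1 lists, the peaks went from 63638 to 57354 and from 29965 to 17241. Of 1392 lost sites without SMC1 in WT, 790 (56.8%, 54.1 to 59.3%) had it in WTLPS, and of 1676 without it in KO, 291 (17.4%, 15.6 to 19.3%) had it in KOLPS. For H3K27ac 702 of 1676 (41.9%) gained a peak in CTCF-WT and 386 of 1685 (22.9%) in CTCF-KO. At kept sites the gains for SMC1 were 100 of 119 (84.0%) and 83 of 136 (61.0%). For H3K27ac at kept sites they were 147 of 259 (56.8%, 50.7 to 62.6%) and 63 of 160 (39.4%, 32.1 to 47.1%). The shares that gained a peak were thus higher in CTCF-WT in both classes. This difference was not tested, as each condition is 1 list, and sites of both classes were chosen for p65 in WTLPS. WTLPS sites where H3K27ac was gained with LPS in CTCF-WT kept p65 at 17.3% (147 of 849), those with the mark before and after LPS at 29.0% (949 of 3269), and those without it in either at 10.3% (112 of 1086).

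CTCF itself was present at few p65 sites. Its peaks lay at 9.42, 7.89, 1.77 and 1.05% of kept sites and at 7.27, 5.87, 1.82 and 1.04% of lost sites in WT, WTLPS, KO and KOLPS. The gap in WTLPS was 2.02 points (0.454 to 3.78), and it turned to −0.187 points (−1.35 to 1.21) when the CTCF and p65 overlaps were read at the summit. Sites with CTCF in WTLPS were kept at 28.3% (23.8 to 33.3%) and those without it at 22.3% (21.2 to 23.5%). Among the 346 sites with CTCF in WTLPS, 291 had none in KOLPS, and 86 of these (29.6%, 24.6 to 35.0%) kept p65. In WTLPS a CTCF peak was found at 248 of the 4223 lost p65 sites.

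The methylation marks separated the classes less. H3K4me1, which marks enhancers, lay at 91.2, 91.7, 88.2 and 73.8% of kept sites and at 88.5, 90.3, 86.1 and 70.8% of lost sites. It fell in KOLPS in both classes, and the KOLPS list was the shortest of its kind with 79120 peaks against 89884 to 94694. H3K4me3, the mark of active promoters, lay at 30.1, 25.8, 27.6 and 20.7% of kept and 18.9, 16.2, 17.8 and 12.2% of lost sites, a gap of 9.54 points (6.93 to 12.3) in WTLPS. At promoters, H3K4me3 in WTLPS lay at 63.4% (57.6 to 68.9%) of kept and 48.9% (45.3 to 52.4%) of lost peaks.

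**Figure D4:**
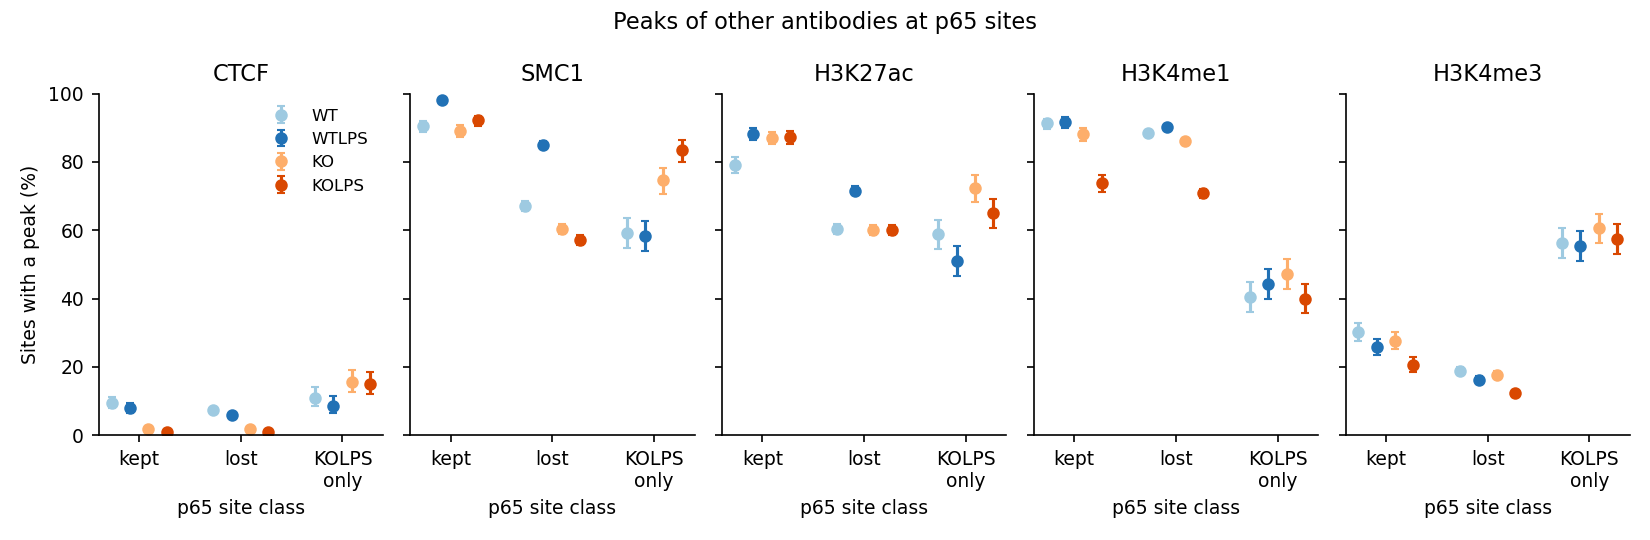
Share of kept, lost and KOLPS only p65 sites (%) with a peak of CTCF, SMC1, H3K27ac, H3K4me1 or H3K4me3 in WT, WTLPS, KO and KOLPS, with 95% Wilson intervals. SMC1 at lost sites is highest in WTLPS, at 85.0%, and CTCF lies below 16% in every class and condition.

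Sites already bound before LPS were kept more often than the others. A p65 peak was present without LPS in WT at 38.4% (35.7 to 41.1%) of kept and 5.90% (5.23 to 6.65%) of lost sites, and in KO at 29.0% and 1.33%. Of the 726 WTLPS sites with a WT peak 65.7% (62.2 to 69.1%) were kept, and of the others 16.1% (15.1 to 17.2%). The sites bound before LPS were also stronger, with a median of 25 fragments in WTLPS against 12.

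The κB consensus lay within 50 bp of 17.0% (15.0 to 19.2%) of kept, 10.4% (9.49 to 11.3%) of lost and 5.31% (3.65 to 7.66%) of KOLPS only summits. Windows of the same length 1 kb away held it in 1.05, 0.995 and 1.12%, and all such windows of the genome in 0.696%. Sites with the consensus were kept at 32.5% (29.0 to 36.2%) and those without it at 21.4% (20.3 to 22.6%). The gap between kept and lost, 6.62 points (4.41 to 8.98), went down to 4.26 points on average within 5 groups of like strength, and its interval excluded 0 in the strongest group alone, at 5.77 points (1.19 to 10.1). The shorter search GGANTTTCC found a match at 9.34% of kept, 5.61% of lost and 2.04% of KOLPS only summits, against 0.297% of genome windows.

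Other motifs were closer between the classes. AP-1 (TGANTCA) lay at 13.1% (11.4 to 15.1%) of kept, 10.7% (9.76 to 11.6%) of lost and 9.80% (7.47 to 12.7%) of KOLPS only summits, against 2.96% of genome windows. PU.1 (GAGGAAGT), which marks myeloid enhancers, lay at 4.59% (3.56 to 5.90%), 4.07% (3.52 to 4.71%) and 1.63% (0.830 to 3.19%), against 0.588%. All motifs were searched on both strands, and a window could hold several of them. IRF (GAAANNGAA) lay at 5.96, 5.59 and 3.88%, against 4.02% of genome windows, and STAT (TTCNNNGAA) at 4.99, 4.83 and 3.47%, against 3.70%. The CTCF consensus was found at 2 kept, 2 lost and 1 KOLPS only summits. No match says only that these letters are not in the window.

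KOLPS only peaks were unlike the others. At the Ighv genes there were 64 KOLPS p65 peaks, 53 in KO, 1 in WTLPS and 0 in WT, and all 64 of KOLPS belonged to this class (13.1% of it). These sites had CTCF peaks at 64 in KO and in KOLPS and at 10 in WT, SMC1 at 64 and 63 and at 3 in WT, and H3K27me3, a repressive mark, at 57 and 58 and at 0 in WT. Their windows held 0 κB matches and had a median GC content of 34.2%. Peaks of unrelated antibodies therefore lay together there in CTCF-KO. The CTCF genotype and any other difference between the CTCF-WT and CTCF-KO samples cannot be told apart for this region.

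**Figure D5:**
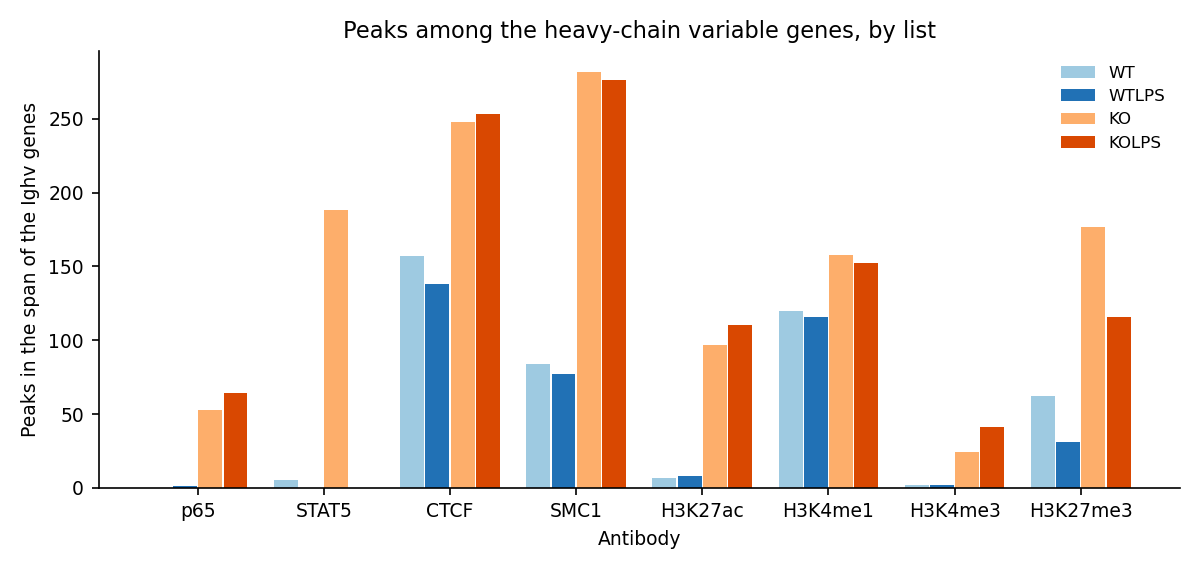
Peaks in the span of the Ighv genes in each list, by antibody and condition, with STAT5 profiled in WT and KO alone. Bars of KO and KOLPS are higher than those of WT and WTLPS for each antibody, from 53 and 64 against 0 and 1 for p65 to 248 and 253 against 157 and 138 for CTCF.

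The other 426 KOLPS only sites lay mostly at active promoters. A promoter held 56.1% (51.4 to 60.7%) of them, and 42.5% (37.9 to 47.2%) had the summit within 1 kb of a coding start, against 9.02% of kept and 5.66% of lost peaks. H3K4me3 was present at 64.8, 63.6, 64.8 and 60.1% in WT, WTLPS, KO and KOLPS, so the mark was already there in CTCF-WT cells. SMC1 went from 66.4% (61.8 to 70.8%) in WTLPS to 81.2% (77.2 to 84.6%) in KOLPS, the reverse of lost sites, and H3K27ac from 58.7% (54.0 to 63.3%) to 66.2% (61.6 to 70.5%). KOLPS only and lost sites were chosen for p65 in opposite lists, and the part of this choice in the reversal was not tested. CTCF fell from 8.22% to 2.35%. With the Ighv sites included CTCF seemed to rise, from 8.57% to 15.1%, so that the region alone turned its direction.

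Sequence at these promoters also differed. The 239 KOLPS only promoter peaks outside the Ighv genes had a median GC content of 63.4% and on average 7.64 CpG per window, against 49.5% and 2.75 in kept and 46.5% and 1.72 in lost promoter peaks. The κB consensus lay at 7.95% (5.15 to 12.1%) of them, compared with 20.4% (16.1 to 25.5%) of kept and 12.3% (10.1 to 14.8%) of lost promoter peaks. Their p65 peaks had a median of 11 fragments, as did lost promoter peaks. The other 187 sites, outside promoters, had H3K4me1 at 78.1, 79.7, 74.9 and 61.0% and SMC1 at 77.5, 82.4, 77.0 and 84.0% in WT, WTLPS, KO and KOLPS, and so were mostly enhancer-marked. A p65 peak without LPS was present at 1.88% of the 426 sites in KO and 0.939% in WT.

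Among the strongest KOLPS only peaks was that at the promoter of Cdk4, the cyclin-dependent kinase of cell cycle entry, with 31 fragments (chromosome 10, 127063285 to 127063628). Tgfb1, the cytokine TGF-β1, had 26 at its promoter (chromosome 7, 25689176 to 25689579) and Crlf2, a chain of the TSLP receptor, 25 (chromosome 5, 109556991 to 109557610). All 3 had H3K4me3 at the site in every condition. Others lay at Colgalt1 (25 fragments), Ascc3 (23), Naa35 (23), Ssbp4 (23), Klf10 (22) and Atp2b1 (21). KOLPS only peaks were nearest to 404 coding genes, of which 154 were also nearest to a WTLPS peak. Over all coding gene names 13.9% were nearest to a WTLPS peak, so the share was higher among these genes. Among the response lists, genes with a promoter peak in KOLPS and not in WTLPS numbered 1 each for the cytokines, the survival and early genes and the TLR4 pathway.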

How the data were processed

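BMDCs selected for CD11c were profiled by ChIP-seq with libraries made by tagmentation. The submitters' processing notes name mm10, BWA 0.7.12, Picard 1.77, MACS2 2.1.2 and deepTools 3.1.3. The deposited p65 lists give a fold, the ratio of fragments to background at the summit, with p-value and q-value as −log10, and are marked as filtered for patch and blacklisted regions. The study describes 2 biological replicates per ChIP-seq condition, peak calling per replicate and, in general terms, merging of replicates, and which of these a deposited list holds is not stated. No reads were used, so depth was taken as the background coverage recovered from the lists. The study's reporting summary gives more uniquely mapped reads for the KOLPS p65 library than for WTLPS, and these read numbers were not used.

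Whole fragments at each summit were recovered from the fold and Poisson p (tolerance 0.002 on −log10 p) for all peaks of the p65 lists. Overlap was 1 bp in Python 3.11.15 (pandas 2.3.3, scipy 1.17.1). Strength ranks used the deposited −log10 q. Genes came from GENCODE vM21 (21938 coding) and sequence from RefSeq GRCm38.p6. Coordinates are 1-based and summit distances are relative to the nearest coding start. Shares have Wilson and differences Newcombe intervals (95%). The lowest −log10 p was 4.35 in WTLPS and 5.39 in KOLPS.

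Named genes were the nearest genes of the 10 strongest peaks and 10 strongest coding promoter peaks of each class, and listed genes with a promoter peak. The 5 genes with the most lost and the most kept peaks and 10 loci were also named. Some genes that the rule names are not reported here. Members and lists were chosen with earlier results of these data known. The scripts were tested on simulated data.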

Additional observations from a re-analysis of the deposited data

Results flagged for a closer look

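With LPS the number of p65 sites with a mark moved in opposite directions in CTCF-WT and CTCF-KO cells for 5 pairs of mark and class. Lost sites with SMC1 went up by a net 758 in CTCF-WT and changed by −129 in CTCF-KO, while the whole SMC1 list went from 63638 to 57354 peaks and from 29965 to 17241. KOLPS only sites with SMC1 changed by −4 and 43. Sites with H3K4me1 changed by 6 and −179 in the kept class, 76 and −647 in the lost class and 19 and −35 in the KOLPS only class. The whole H3K4me1 list also became shorter with LPS, from 94694 to 89884 peaks in CTCF-WT and from 93525 to 79120 in CTCF-KO. These differences between genotypes were not tested, since each list is 1 sample.

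Lists outside the comparisons above also had peaks at p65 sites. STAT5, the factor activated by GM-CSF, lay at 43.9% of kept sites in WT and 35.3% in KO, at 22.0% and 17.3% of lost sites, and at 9.39% and 18.4% of KOLPS only sites. Outside the Ighv genes the last pair was 10.8% and 8.45%. H3K27me3 lay at 0.408% of KOLPS only sites in WT and 11.8% in KO, and outside the Ighv genes at 0.469% and 0.235%.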

How the results depend on the processing

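Of 82 alternative values 64 moved little, shares and differences by less than their counting interval and counts of genes by less than 1.5 times. No paired analysis was possible because each condition has 1 list, and leaving out a replicate was not possible for the same reason. Peaks with −log10 q of at least 5 gave a kept share of 24.1%, an SMC1 gap between kept and lost sites of 32.1 points, and an H3K4me1 gap in WTLPS of −0.293 in place of 1.44 points. Overlap at the summit gave a kept share of 21.3%, an H3K27ac gap of 18.5, an H3K4me3 gap of 3.66 and a CTCF gap of −0.187 points. With p65 peaks cut to 100 bp on either side of the summit the KOLPS only share was 32.4%, and the H3K27ac, CTCF and H3K4me3 gaps were 21.4, 0.121 and 5.45 points. The motif GGANTTTCC gave a gap of 3.73 points. Chosen after seeing the data, averages within 5 strength groups gave 8.05 points for promoters, 4.26 for the κB consensus, 22.1 for H3K27ac and −2.69 for H3K4me1, the peaks of sufficient fragments a kept share of 41.0%, and lists without the Ighv genes a KOLPS only share of 25.2%. Requiring the lowest −log10 p of KOLPS, 5.39, of both lists gave a kept share of 23.1%. The cause was not tested in any of these. The libraries' coverage limits calls of weak peaks, and without replicates no interval covers the spread between cultures.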
